A study of Homo sapiens with 6 samples.

Results

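A set of 9 enzyme genes of routes that leave glycolysis was followed by name in RNA-seq libraries of PLC/PRF5, a human liver cancer cell line. They were 4 enzymes of the pentose phosphate pathway (PGD, TKT, TALDO1 and RPIA), the 3 enzymes of serine synthesis (PHGDH, PSAT1 and PSPH) and 2 enzymes of mitochondrial one-carbon metabolism (SHMT2 and MTHFD2). They were taken as a list by symbol, matched to the Ensembl identifiers of the count files, and all 9 members were found among the 60675 counted genes and passed the filter on low counts, which kept 18075. The series compared 3 control libraries with 3 libraries after knockdown of MTR4 (MTR4 KD), a helicase that feeds RNA to the nuclear exosome, and asked which genes depend on MTR4. The labels give each library the cell line, its group and its replicate number, and the study describes shRNA delivered by lentivirus, with a doxycycline-inducible knockdown for the RNA-seq. Whether the cells were 1 clone and whether replicates were separate cultures are not given in the sources used here, so the p-values measure only the spread between these libraries, which may be technical. The labels do not mention doxycycline, and none of the 6 libraries is labelled as an inducible scramble shRNA with doxycycline. If only the MTR4 KD libraries received doxycycline, its effect cannot be told apart from that of the knockdown in these libraries. In cells with an inducible scramble shRNA, the paper reports no effect of doxycycline on the glycolytic mRNAs it measured. The 9 members are not named among those mRNAs. Gene positions are on GRCh38, and values of single libraries are given in the order of replicates 1, 2 and 3.

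The pentose phosphate pathway takes glucose-6-phosphate out of glycolysis. Its oxidative arm, which includes PGD, yields NADPH and ribulose phosphate, and its non-oxidative arm, with RPIA, TKT and TALDO1, interconverts sugar phosphates and can return carbon to glycolysis. Serine synthesis leaves glycolysis lower down, at phosphoglycerate, and runs through PHGDH, PSAT1 and PSPH. SHMT2 then splits serine into glycine and a folate-bound carbon unit in the mitochondria, and MTHFD2 oxidises that unit on its way to formate. Ribose phosphate, glycine and formate are all used to build nucleotides, and serine and one-carbon enzymes are known as highly expressed in many tumours.

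The targeted gene bore out the labels. MTR4, now named MTREX (ENSG00000039123), was at 72.2, 87.4 and 74.4 CPM (reads scaled to library size after TMM normalization) in control and at 44.6, 48.8 and 44.1 CPM after knockdown, a mean 41.2% below control, so knockdown was partial. Each library had 60686786 to 72708682 reads counted on genes. By the share of reads without a unique alignment the libraries split into 2 batches, one of 34.7 to 37.5% (MTR4 KD replicate 3 with control replicates 1 and 3) and one of 14.8 to 18.2% (MTR4 KD replicates 1 and 2 with control replicate 2). The labels name no batch; these are called here the batches with more and fewer non-unique reads, and each holds both groups. Genes of the mitochondrial genome took 5.80% of the reads in MTR4 KD replicate 3 and 3.04 to 3.99% in the other libraries. Of 10 hepatocyte markers all were detected, at a summed 22400 to 24120 CPM in control and 22710 to 24310 CPM in MTR4 KD libraries, whereas markers of leukocytes, endothelium and fibroblasts summed to 4.41 to 9.86 and 2.92 to 8.58 CPM. Of the hepatocyte markers 3 were called higher (TTR, APOA1 and ALB at log2 changes of 0.88, 0.52 and 0.29) and 1 lower (KRT18 at -0.26). With the replicate block ALB (adjusted p = 0.0589, edgeR) and KRT18 (0.0629) were no longer called. With the library batch as a covariate both were called (0.000806 and 0.000647), in a fit that calls more of all genes. The part of the hepatocyte markers in the changes of the 9 enzymes was not tested. Among the markers of other cell types CD68 had no read in any control library, PTPRC had 109 reads in control replicate 3 and 33 in MTR4 KD replicate 3, CD3E had 31 and 25 in the same libraries, and both had 0 to 8 reads in each other library. COL1A2 stood at 4.67 CPM in control replicate 2 and at 0.0326 to 1.03 CPM in the other libraries.

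Most of the 9 enzymes changed little after MTR4 knockdown, and the 2 that passed the test moved in opposite directions. TKT, the transketolase of the non-oxidative pentose arm, fell by 21.4%, and PSPH, which releases serine in the last step of serine synthesis, rose by 35.4%. The other 7 enzymes lay within a fitted change of -15.5% (MTHFD2) to 11.7% (PSAT1). All 4 pentose phosphate enzymes had a negative and all 3 serine synthesis enzymes a positive log2 fold change, and both one-carbon enzymes had a negative one. Of all 18075 genes tested, 8841 had a negative and 9234 a positive one. For PGD, TALDO1, PHGDH and SHMT2 the 95% interval included 0, so their signs were not resolved. In the edgeR quasi-likelihood fit across all genes, 1 of 9 members was called lower at a Benjamini-Hochberg adjusted p under 0.05, against 2.12% of all genes tested, and 1 was called higher, against 1.48%. DESeq2 and limma-voom each called 1 lower and 1 higher as well. No member also passed a fold change over 2 in the edgeR fit, which 0.83% of all genes did; at an unadjusted p under 0.05 there were 3 lower, against 9.84% of all genes, and 2 higher, against 8.93%, and none of these reached that fold. The median log2 fold change of the 9 members was -0.047, beside 0.0062 for all genes tested.

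With the library batch as a covariate, 3 members were called lower (TKT, RPIA and MTHFD2) and 2 higher (PSPH and PSAT1). This fit called 10.8% of all genes lower and 9.43% higher, so its calls are read against a larger background. The same 5 genes were those whose control and MTR4 KD libraries did not overlap, 3 of 9 lower against 12.6% of all genes and 2 of 9 higher against 12.1%. For the remaining 4 members, PGD, TALDO1, PHGDH and SHMT2, the groups overlapped.

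**Figure D1:**
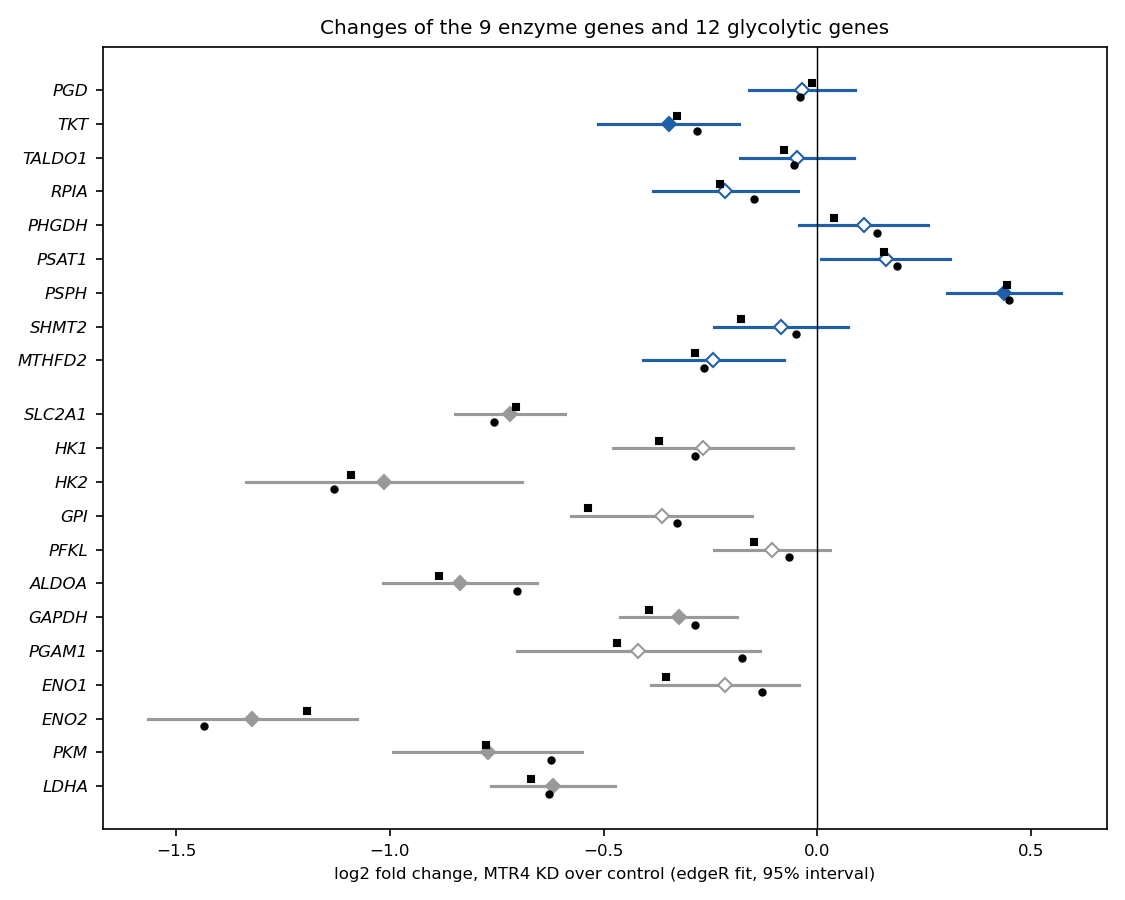
Log2 fold change (MTR4 KD over control, edgeR) of the 9 enzyme genes in blue and 12 glycolytic genes in grey, with 95% intervals as lines. Filled diamonds have an adjusted p under 0.05, black squares and circles are the differences within the batches with more and fewer non-unique reads; of the 9, TKT at -0.35 and PSPH at 0.44 are filled, while all 12 glycolytic genes lie below 0.

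PGD (ENSG00000142657, chr1:10399064-10420511) encodes phosphogluconate dehydrogenase, the second NADPH-producing step of the oxidative arm. It was at 384, 385 and 393 CPM in control and at 368, 381 and 385 CPM after knockdown. The lowest value came from MTR4 KD replicate 1, and the groups overlapped. Its log2 fold change of -0.035 (SE 0.0528, adjusted p = 0.778, edgeR) had a 95% interval of -0.16 to 0.089, so a fall of over 10.4% or a rise of over 6.37% lay outside the interval. Within the batches with more and fewer non-unique reads the log2 difference was -0.012 and -0.041.

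RPIA (ENSG00000153574, chr2:88691673-88750929) makes ribose-5-phosphate, the sugar of nucleotides, from ribulose phosphate. It was the pentose phosphate member with the fewest reads, 1213 to 1555 per library. Levels were 22.9, 21.5 and 23.7 CPM in control and 19.8, 19.0 and 19.9 CPM after knockdown. Every MTR4 KD library was below every control library. The log2 fold change was -0.22 (95% interval -0.39 to -0.045, adjusted p = 0.174, edgeR), which did not pass the test, and the batch-adjusted value was -0.19 (adjusted p = 0.0454).

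TKT (ENSG00000163931, chr3:53224712-53256022) moves carbon units between sugar phosphates in both directions and links the pentose pathway to glycolysis. It was at 406, 380.1 and 436 CPM in control and at 312, 313 and 335 CPM after knockdown. The groups did not overlap: the lowest control library, replicate 2, was above the highest MTR4 KD library, replicate 3. The mean went from 407 ± 28.0 to 320.2 ± 13.2 CPM (mean ± SD of 3 libraries each). This is a log2 change of -0.35 (SE 0.0703, 95% interval -0.51 to -0.18, adjusted p = 0.0451, edgeR). This adjusted p lies close to the threshold. The replicate block gave 0.0284, and the fit adjusted for library batch gave 0.000295 at a log2 change of -0.31. Without control replicate 1, control replicate 3, or MTR4 KD replicates 1, 2 or 3, the adjusted p was 0.181, 0.178, 0.236, 0.218 and 0.0502 on 5 libraries, with log2 fold changes between -0.38 and -0.30 and 0 members called lower, and relative to ACTB it was 0.231 at a log2 change of -0.16, or -0.35 relative to the median of all genes on that scale. Within the batches the log2 difference was -0.33 (more non-unique reads) and -0.28 (fewer).

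TALDO1 (ENSG00000177156, chr11:747464-765012) is the transaldolase that acts beside transketolase. Its values were 271, 288 and 287 CPM in control and 275, 279 and 264 CPM after knockdown. Control replicate 1 lay below 2 of the 3 MTR4 KD libraries. The log2 fold change was -0.047 (95% interval -0.18 to 0.086, adjusted p = 0.712, edgeR), which leaves changes between -11.8% and 6.15% inside the interval.

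PHGDH (ENSG00000092621, chr1:119711934-119744215) oxidises phosphoglycerate and so commits it to serine. Its levels were 87.2, 91.3 and 94.9 CPM in control and 100.3, 100.9 and 93.4 CPM after knockdown. MTR4 KD replicate 3 fell below control replicate 3, and the groups overlapped. The log2 fold change was 0.11 (95% interval -0.042 to 0.26, adjusted p = 0.42, edgeR). It was 0.038 within the batch with more and 0.14 within the batch with fewer non-unique reads.

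PSAT1 (ENSG00000135069, chr9:78297125-78330093) passes an amino group from glutamate to the product of PHGDH. It was measured at 143.7, 137 and 141 CPM in control and at 165.5, 147 and 159 CPM after knockdown. All MTR4 KD libraries were above all control libraries, with MTR4 KD replicate 2 closest to control replicate 1. The log2 fold change was 0.16 (95% interval 0.0082 to 0.31, adjusted p = 0.246, edgeR), and the batch-adjusted value was 0.17 (adjusted p = 0.0238). The gene has 4 pseudogenes named after it in the annotation, which held at most 1 read in a library.

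PSPH (ENSG00000146733, chr7:56011064-56051444) removes the phosphate in the final step and frees serine. It was at 138, 131 and 129 CPM in control and at 179, 178 and 182 CPM after knockdown. The 3 MTR4 KD libraries lay close together and all were above the highest control library, replicate 1. The mean went from 133 ± 5.02 to 179.7 ± 1.90 CPM (mean ± SD of 3 libraries each). This is a log2 change of 0.44 (SE 0.0570, 95% interval 0.30 to 0.57, adjusted p = 0.00974, edgeR). The replicate block gave 0.44 (adjusted p = 0.0134), and adjusting for library batch gave 0.45 (adjusted p = 9.21e-06). Within the batches with more and fewer non-unique reads the log2 difference was 0.445 and 0.449. Without control replicate 3 or MTR4 KD replicates 1 or 2 the adjusted p was 0.0631, 0.0697 and 0.0732 on 5 libraries, with log2 fold changes of 0.42 to 0.44 and 0 members called higher. Its pseudogene PSPHP1 had 657 to 863 reads per library against 7773 to 11899 for PSPH, and a log2 fold change of -0.14 (adjusted p = 0.472), so the pseudogene's uniquely aligned reads did not move with the gene.

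**Figure D2:**
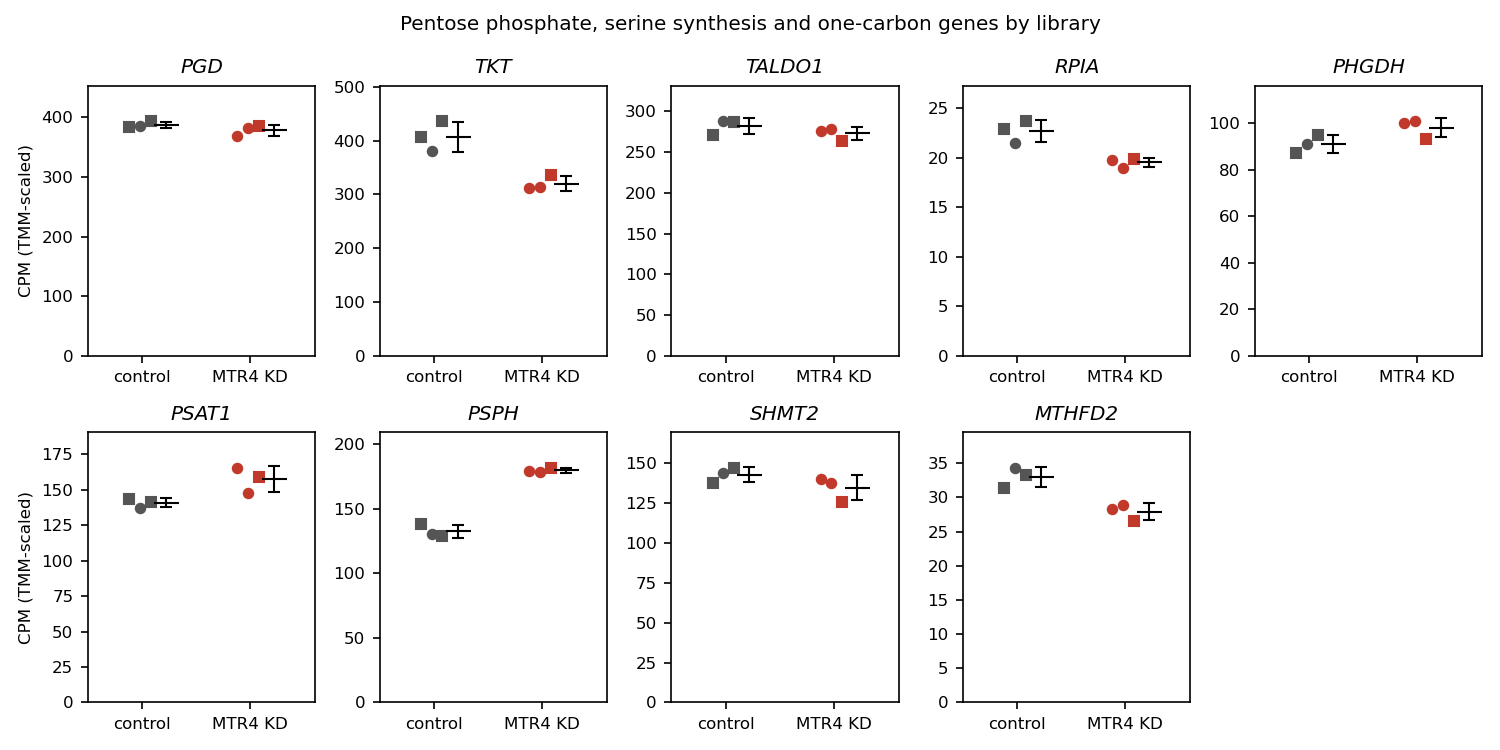
TMM-scaled CPM of the 9 enzyme genes in each control (grey) and MTR4 KD (red) library, with every vertical axis starting at 0. Squares are libraries of the batch with more and circles of the batch with fewer non-unique reads, and bars give the mean and SD of 3 libraries; TKT goes from 407 to 320.2 CPM and PSPH from 133 to 179.7 CPM, while PGD stays between 368 and 393 CPM.

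SHMT2 (ENSG00000182199, chr12:57229711-57234935) is the mitochondrial serine hydroxymethyltransferase. The control libraries gave 137.5, 144 and 147 CPM, and the knockdown libraries 140.3, 138 and 126 CPM. MTR4 KD replicate 3 was the lowest library and the other MTR4 KD libraries overlapped with control. The log2 fold change was -0.086 (95% interval -0.24 to 0.071, adjusted p = 0.55, edgeR), with -0.18 within the batch with more and -0.049 within the batch with fewer non-unique reads. MTR4 KD replicate 3 is also the library with 5.80% of reads on genes of the mitochondrial genome, and without it the log2 fold change of SHMT2 was -0.038 (adjusted p = 0.737, edgeR).

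MTHFD2 (ENSG00000065911, chr2:74198615-74217565) acts as methylenetetrahydrofolate dehydrogenase and cyclohydrolase in the mitochondria. It was at 31.4, 34.3 and 33.3 CPM in control and at 28.3, 28.9 and 26.5 CPM after knockdown. No MTR4 KD library reached the lowest control library. The log2 fold change of -0.24 (95% interval -0.41 to -0.078, adjusted p = 0.123, edgeR) did not pass the test, whereas with the library batch as a covariate it was -0.28 (adjusted p = 0.00346). Of its canonical transcript, 36.8% of the bases overlap exons of genes on the opposite strand, and the strand setting of the counting is not given in the sources used here, so reads from those bases may be missing from its count or come from the other strand. The same held for 6.21% of SHMT2, and for no base of the other 7 members.

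Per kilobase of canonical transcript, 3 of the 4 pentose phosphate enzymes stood highest and the other, RPIA, was among the lowest. On the RPKM scale (TMM-scaled CPM per kilobase), control means were 235 ± 7.88 for TALDO1, 171 ± 2.24 for PGD and 136 ± 9.34 for TKT (SD, n = 3 each), and each of these 3 was apart from the next in all control libraries. PSPH at 67.2 ± 2.54, SHMT2 at 66.2 ± 2.27 and PSAT1 at 63.8 ± 1.46 RPKM overlapped with their neighbours in this order. PHGDH followed at 48.8 ± 2.08, RPIA at 12.5 ± 0.620 RPKM and MTHFD2 at 7.14 to 7.80 RPKM, the lowest of the 9. The value of MTHFD2 rests on a length of which 36.8% overlaps exons on the opposite strand, so its place below RPIA is uncertain. In MTR4 KD libraries PSPH was at 91.0 ± 0.964, PSAT1 at 71.3 ± 4.15 and SHMT2 at 62.4 ± 3.63 RPKM, so PSAT1 and SHMT2 traded places in the order of means and the other members kept theirs.

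Where the routes divide, the ratios of PGD and PHGDH reads to those of their glycolytic neighbours were higher in every MTR4 KD library than in any control library. The ratio of 2 genes within a library does not depend on scaling between libraries, and 5 such ratios were computed and compared by an exact two-sided permutation test, which cannot give a p below 0.1 for 3 against 3 libraries. PGAM1, phosphoglycerate mutase, competes with PHGDH for the same pool of phosphoglycerate. The log2 ratio of PHGDH to PGAM1 reads was -2.42, -1.96 and -2.32 in control and -1.74, -1.55 and -1.86 after knockdown. All 3 MTR4 KD libraries were above all control libraries, by a mean of 0.52 (exact p = 0.1, 0.125 adjusted over the 5 ratios). The differences were 0.51 and 0.32 within the batches with more and fewer non-unique reads. For PGAM1 alone the log2 change was -0.42 (adjusted p = 0.123, edgeR).

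GPI is the isomerase that keeps glucose-6-phosphate in glycolysis, and its log2 change was -0.36 (adjusted p = 0.0853, edgeR). The log2 ratio of PGD to GPI was -0.76, -0.85 and -0.76 in control and -0.57, -0.56 and -0.24 after knockdown. MTR4 KD replicate 3 stood highest, and the groups did not overlap (mean difference 0.33, exact p = 0.1, adjusted 0.125). The log2 ratio of TALDO1 to TKT was -0.53 ± 0.112 in control and -0.23 ± 0.0990 in MTR4 KD libraries without overlap (SD, n = 3 each, exact p = 0.1, adjusted 0.125). Between compartments, the ratio of SHMT2 to its cytosolic counterpart SHMT1 was 2.09 ± 0.131 and 2.11 ± 0.0726 on the log2 scale, with overlapping groups (exact p = 1, adjusted 1). The ratio of MTHFD2 to the cytosolic MTHFD1 went from -1.76 ± 0.0687 to -1.97 ± 0.0771 without overlap (exact p = 0.1, adjusted 0.125). These log2 ratios compare reads of genes of different length, so only their change between groups is read. Taken alone, PGD, PHGDH and TALDO1 overlapped between groups, whereas GPI, PGAM1 and TKT were lower in every MTR4 KD library than in any control library. The share of other gene pairs whose ratios do not overlap was not computed.

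**Figure D3:**
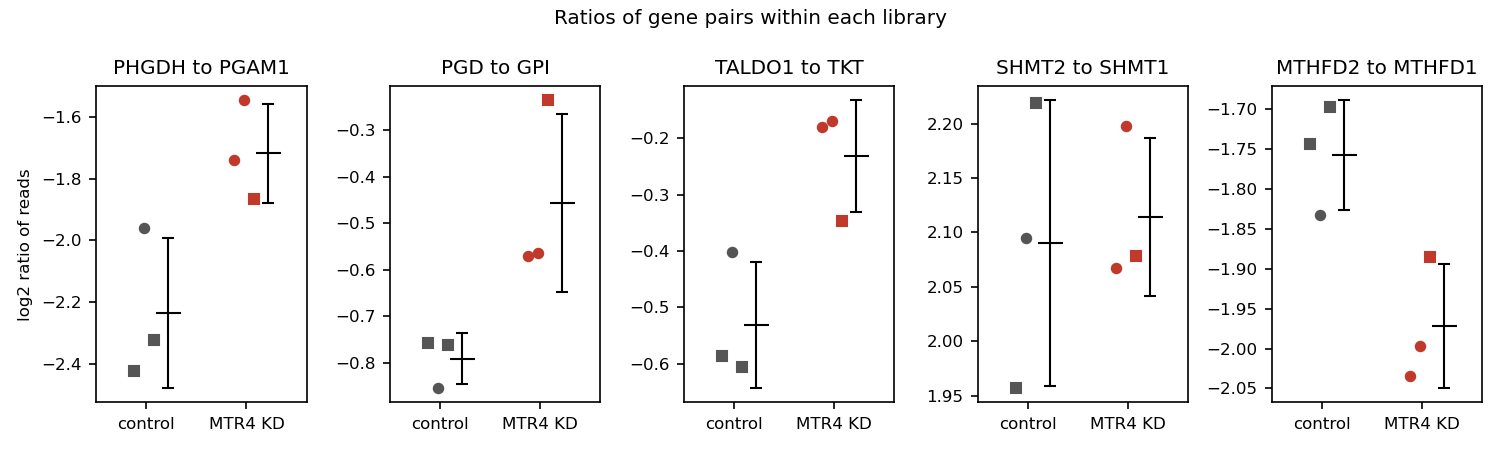
Log2 ratio of reads for 5 gene pairs in each control (grey) and MTR4 KD (red) library, on axes that do not start at 0. Squares and circles mark the batches with more and fewer non-unique reads and bars the mean and SD. The groups are apart for every pair but SHMT2 to SHMT1, and the share of other gene pairs without overlap was not computed.

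The other pentose phosphate genes reported here, which are not the whole pathway, numbered 12. Of these 10 were tested, and 0 were called in either direction (edgeR); 2 were lower and 0 higher at an unadjusted p under 0.05, and DESeq2 and limma-voom called 0. Their median log2 fold change was -0.082, with 7 negative and 3 positive values. With the library batch as a covariate 3 of the 10 were lower and 0 higher, namely PRPS1, PRPS2 and PGM2. PRPS1, the most highly expressed of the list per kilobase in control (66.0 RPKM), and PRPS2 make phosphoribosyl pyrophosphate from ribose phosphate. PRPS1 was at 131, 147 and 132 CPM in control and at 127, 120.5 and 105 CPM after knockdown, with every MTR4 KD library below every control library. Its log2 fold change was -0.22 (adjusted p = 0.252, edgeR), and those of PRPS2 and PGM2, both named after their values were seen, were -0.090 and -0.22 (adjusted p = 0.518 and 0.116). TKTL1 and TKTL2, relatives of TKT, did not pass the filter on low counts.

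The other serine, glycine and folate genes showed no called change. All 19 reported here were tested and 0 passed in the edgeR fit, with 1 lower and 2 higher at an unadjusted p under 0.05, and DESeq2 and limma-voom called 0 as well. Their median log2 fold change was 0.017, and the most highly expressed per kilobase in control, MTHFD1, had -0.028 (adjusted p = 0.906, edgeR). With the library batch as a covariate 2 were lower and 2 higher. These were MTHFD1L and SFXN1 at -0.16 and -0.19, and MTHFD2L and GLDC, of the glycine cleavage system, at 0.41 and 0.19, all named after their values were seen. In the methionine cycle and transsulfuration, which use serine and folate carbon, 7 of 8 genes were tested and 1 was called higher. This was MAT1A, which makes S-adenosylmethionine in liver, with a log2 fold change of 0.40 (adjusted p = 0.0483, edgeR; 0.0583 with the replicate block). Leaving out any 1 of the 6 libraries left 0 genes of that list called higher.

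Among 15 genes of purine and pyrimidine synthesis, 13 had a negative log2 fold change, beside 8841 of all 18075 genes tested, with a median of -0.11. In the edgeR fit 0 of them were called, 4 were lower and 0 higher at an unadjusted p under 0.05, DESeq2 called 2 lower and limma-voom 0. With the library batch as a covariate 6 were lower and 0 higher. Of the 6 other NADPH-producing enzymes 1 was called lower, the mitochondrial IDH2, from 342 ± 8.61 to 284 ± 5.56 CPM (SD, n = 3 per group, log2 fold change -0.27, adjusted p = 0.0425, edgeR; 0.0607 with the replicate block). Without any library other than control replicate 2, 0 genes of this list were called lower.

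In the 12 glycolytic genes used for comparison, 7 were called lower and none higher (edgeR), with 4 lower without control replicate 1, MTR4 KD replicate 1 or MTR4 KD replicate 2, and the median log2 fold change was -0.52, against a median of -0.13 for the 4 pentose phosphate members, 0.16 for the 3 serine synthesis members and -0.16 for the pair of one-carbon members. The largest called falls were those of ENO2, an enolase (log2 change -1.32, adjusted p = 0.00122), HK2, a hexokinase (-1.01, adjusted p = 0.0112), and ALDOA, an aldolase (-0.84, adjusted p = 0.00233). Summed over each list, the glycolytic genes were at 9967 to 10660 CPM in control and 7163 to 7630 CPM in MTR4 KD libraries. The pentose phosphate members were at 1074 to 1139 and 975 to 1005 CPM. The serine synthesis members were at 359 to 369 and 426.5 to 445 CPM. None of these sums overlapped between groups, which was common among the lists. The sums include TKT, with means of 407 and 320.2 CPM, and PSPH, with 133 and 179.7 CPM. Taken alone, PGD, TALDO1 and PHGDH overlapped between groups. The one-carbon members were apart too (168.9 to 180.4 and 152.1 to 168.5 CPM), as was purine and pyrimidine synthesis (2076 to 2114 and 1915 to 1941 CPM). So were the other pentose phosphate genes, the methionine cycle list and the NRF2 targets below. The other NADPH-producing enzymes (964 to 997 and 938 to 981 CPM) overlapped, as did the other serine, glycine and folate genes and the ATF4 targets below. The share of other gene lists with sums apart was not computed.

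**Figure D4:**
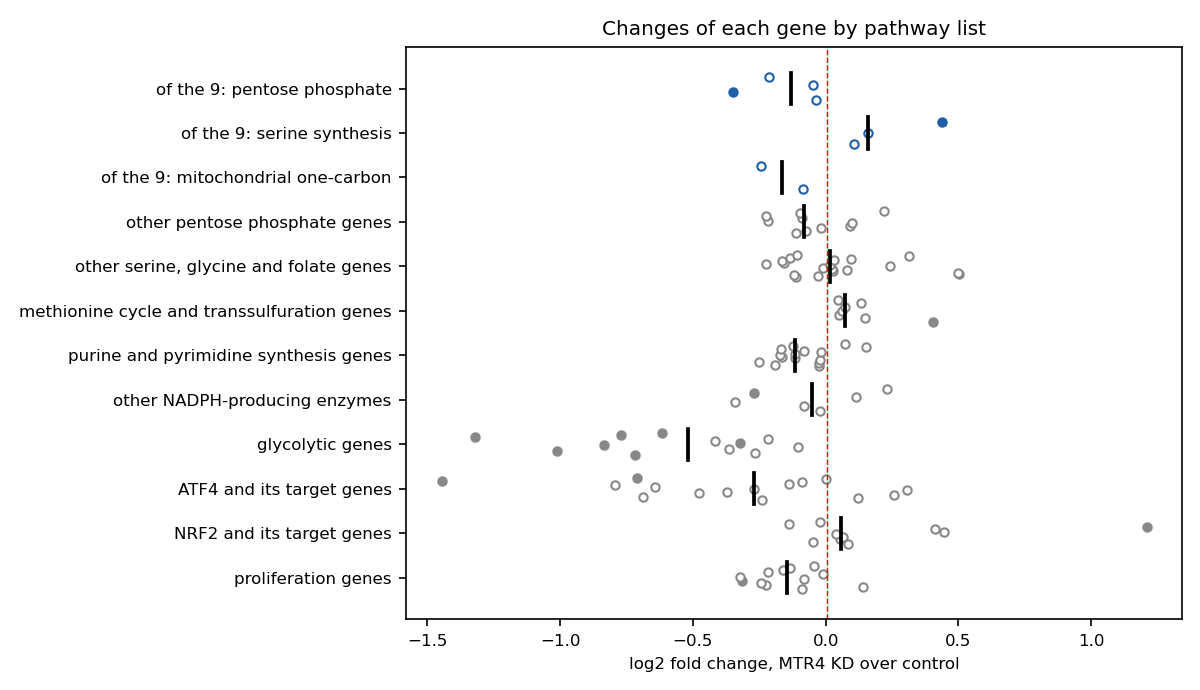
Log2 fold change (MTR4 KD over control, edgeR) of every tested gene by list, with the 9 enzymes in blue and other lists in grey. Filled points have an adjusted p under 0.05, thick bars are list medians, and the dashed line is the median of all genes tested, 0.0062; the glycolytic median is -0.52 and that of serine synthesis 0.16.

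ATF4 is a transcription factor that is known to raise PHGDH, PSAT1, PSPH, SHMT2 and MTHFD2 when amino acids are short. Of ATF4 and 14 of its other known targets, 2 were called lower and none higher (edgeR), with a median log2 fold change of -0.27. The called genes were DDIT4, an inhibitor of mTOR signalling that is also induced by hypoxia, with -1.45 (adjusted p = 0.000505), and STC2, a secreted glycoprotein, with -0.71 (adjusted p = 0.00105). ATF4 itself had -0.24 (adjusted p = 0.21), and ASNS, asparagine synthetase, had 0.12 (adjusted p = 0.343). With the library batch as a covariate 7 of the 15 were lower and 3 higher. NRF2 is known to raise PGD, TKT and TALDO1. On the list of NRF2 (NFE2L2) and its other targets, 1 of 10 genes was called higher and none lower (edgeR): OSGIN1, an oxidative stress response gene, with a log2 fold change of 1.21 (adjusted p = 0.0134). Without control replicate 3, MTR4 KD replicate 1 or MTR4 KD replicate 2 this list had 0 genes called higher. Of 12 proliferation genes 1 was called lower, MCM5 of the replication helicase (log2 fold change -0.31, adjusted p = 0.0494, edgeR). Its adjusted p was 0.0597 with the replicate block and 0.000981 when adjusted for library batch, a fit that called 8 of the 12 lower. Without any library other than control replicate 2, 0 of the 12 were called lower. The proliferation genes summed to 1477 to 1638 CPM in control and 1272 to 1535 CPM in MTR4 KD libraries. The part of proliferation in the changes of the 9 enzymes was not tested, and fewer cells of a state and less RNA per cell cannot be told apart in bulk libraries.

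Likeness of pattern was measured as the root mean square difference of mean-centred log2 CPM over the 6 libraries, among the 127 tested genes of all lists with MTREX and ACTB. It is a description over libraries that share batches. The values were not scaled by their spread, so genes that vary little lie close to one another. The nearest gene to TKT was PAICS of purine synthesis (0.0626) and the nearest to PSAT1 was ASNS (0.0463). ASNS is on the ATF4 list, whose median log2 fold change was -0.27, and shared control was not tested. PSPH lay nearest to APOA1, an apolipoprotein (0.0546), PHGDH to CTPS2 of pyrimidine synthesis (0.0583), RPIA to ACTB (0.0187) and PGD to NQO1 (0.0198). TALDO1 lay nearest to SHMT2 (0.0364), SHMT2 to CAD of pyrimidine synthesis (0.0337) and MTHFD2 to MCM2 (0.0463).

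Promoter windows from RefSeq (GRCh38.p14, 250 bases before to 50 after the annotated start) matched 7 of the 9 members, all but PSPH and SHMT2, which do not enter the motif counts. They were searched on both strands for the letters TGATGNAA (amino acid response element core, bound by ATF4), TGACNNNGC (antioxidant response element core, bound by NRF2), CACGTG (E-box) and ACGTG (hypoxia response element core, which also lies inside an E-box). Of 35116 windows, 3.62%, 13.3%, 7.26% and 21.4% held them, respectively. Among the 7 members, 2 held the antioxidant element core, 2 the hypoxia element core and 0 each of the others. In both cases these were PGD and MTHFD2, neither of which passed the test in the edgeR fit without the batch. The window of TKT, the member that was called lower, held none of the 4 motifs. Those of TALDO1, RPIA, PHGDH and PSAT1, which were not called in that fit, held none either. No window of PSPH, the member that was called higher, was searched. Other forms of these elements, such as GCGTG for the hypoxia element, were not searched. A match of letters is a description and not a binding site. The 2 windows with matches and that of TKT are shown, with the matches in capitals. PGD lies at chr1:10398814-10399113 on the plus strand, TKT at chr3:53255973-53256272 on the minus strand and MTHFD2 at chr2:74198365-74198664 on the plus strand.
PGD: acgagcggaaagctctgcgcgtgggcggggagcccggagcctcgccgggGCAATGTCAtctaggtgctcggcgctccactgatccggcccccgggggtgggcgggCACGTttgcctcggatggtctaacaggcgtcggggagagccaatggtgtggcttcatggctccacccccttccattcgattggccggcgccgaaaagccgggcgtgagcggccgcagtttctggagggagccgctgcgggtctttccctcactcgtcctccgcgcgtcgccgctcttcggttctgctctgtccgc
TKT: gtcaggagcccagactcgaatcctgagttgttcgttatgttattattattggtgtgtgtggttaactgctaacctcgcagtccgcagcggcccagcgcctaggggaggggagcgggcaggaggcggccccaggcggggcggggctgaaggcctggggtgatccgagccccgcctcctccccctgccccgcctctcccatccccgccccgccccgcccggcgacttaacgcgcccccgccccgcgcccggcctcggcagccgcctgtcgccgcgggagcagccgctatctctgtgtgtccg
MTHFD2: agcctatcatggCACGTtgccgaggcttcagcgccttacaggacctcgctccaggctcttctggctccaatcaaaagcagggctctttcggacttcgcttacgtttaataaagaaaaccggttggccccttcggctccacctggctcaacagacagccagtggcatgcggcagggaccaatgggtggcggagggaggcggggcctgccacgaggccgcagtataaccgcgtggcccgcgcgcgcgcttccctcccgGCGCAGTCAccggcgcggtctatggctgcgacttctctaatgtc
In PGD the antioxidant element match begins at position -201 and the hypoxia element match at position -145, counted from the annotated start. In MTHFD2 the hypoxia element match begins at position -238 and the antioxidant element match at position 6.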

How the data were processed

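RNA was sequenced from 3 control and 3 MTR4 KD libraries of PLC/PRF5 cells. The authors deposited raw counts of reads per Ensembl gene, without normalization. The submitters' processing notes name HISAT2 2.1.0, HTSeq, DESeq2 and GRCh38, and the counting mode and strand setting are not given in the sources used here. Reads without a unique alignment, 14.8 to 37.5% of all entries, were not counted on genes, which can lower genes with near-identical copies. Rows that name no gene were left out of library sizes.

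Symbols came from GENCODE identifiers (56959 of the 60675 counted genes matched), transcript lengths and overlaps from the same annotation on GRCh37, and chromosomes from RefSeq on GRCh38. Counts were filtered by filterByExpr (minimum count 10), scaled by TMM and compared with edgeR's quasi-likelihood test (R 4.3.3, edgeR 4.0.16, limma 3.58.1, DESeq2 1.42.0), fitting condition alone, with p adjusted by Benjamini-Hochberg over 18075 genes. Standard errors and 95% intervals follow from the quasi-likelihood F statistic. Each member had at least 1213 reads in every library. Plots were drawn in matplotlib 3.10.9 (Python 3.11.15, pandas 2.3.3).

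The members and lists were chosen with earlier results of these data known. Named genes were the 9 members, MTREX, the partners of the ratios, up to 3 called genes per direction and list, the highest expressed of the pentose and of the folate list, and each member's nearest gene. Some genes of the pathway lists are not reported here. PECAM1, listed as an endothelial marker, was not matched.

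The replicate numbers do not pair the libraries: over genes, deviations from group means correlated at -0.22, 0.30 and 0.33 for the same-numbered pairs, and the 2 positive pairs shared a batch. Replicates of a group differed by more than sampling noise. Chi-square per degree of freedom was 4.83 and 8.17 for replicates that shared a batch, and 83.6 to 93.9 for those that did not. On simulated counts of 17700 genes with 200 changed 2-fold, this test recovered 163 and called 20 others that had not been changed. The simulated counts held no batch and no smaller changes. They therefore do not measure how often changes of the size seen in the members are recovered. Alternatives were other normalizations, filters and tests, the replicate block, the library batch (over 30% non-unique reads), thinning and leaving out each library.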

Additional observations from a re-analysis of the deposited data

How the results depend on the processing

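Over 16 alternatives, every member kept its sign except PGD, TALDO1 and SHMT2 relative to ACTB, where they were at 0.15, 0.14 and 0.10 on the log2 scale. That scaling put the median of all genes at 0.19, and relative to it they stood at -0.040, -0.053 and -0.090. Members called lower were 0 relative to ACTB, 3 when adjusted for library batch, and 0 to 1 without a library. Members called higher were 2 with the library batch and 0 to 1 without a library. The other listed genes called lower, 11 in all, became 7 relative to ACTB, 17 with the DESeq2 Wald test, 38 with the library batch and 6 to 13 without a library, and the 2 called higher became 1 with DESeq2 size factors, 5 relative to ACTB, 1 with the replicate block, 10 with the library batch and 0 to 1 without a library. All genes called lower (383) became 169 relative to ACTB, 770 with the DESeq2 Wald test, 1944 with the library batch and 85 to 503 without a library, and all called higher (267) became 616, 593, 1705 and 52 to 300. With a fold change over 2 as well (150), 227 passed with the DESeq2 Wald test, 347 with the library batch and 73 to 180 without a library. The ratio of SHMT2 to SHMT1 reversed to -0.010 among libraries with more non-unique reads, and ranged from -0.043 to 0.088 without a library. MTR4 stayed lower throughout. With the replicate block 1 member was lower and 1 higher, the same genes as without it, and 515 genes were called lower and 342 higher; the numbers do not pair the libraries. Leaving out a library leaves fewer samples; the cause of the other shifts was not tested. With 3 libraries per group, changes of the size seen in RPIA, PSAT1 and MTHFD2 were not resolved without the batch term.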
